A study of Mus musculus with 7 samples.

Results

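The genes described here are the structural genes of the cornified envelope that lie in the epidermal differentiation complex of mouse chromosome 3. They were chosen by name from the platform's gene symbols: every symbol that begins with Lce or Sprr, together with Lor, Flg, Flg2, Hrnr, Rptn, Ivl, Crnn, Crct1 and Tchhl1. The rule found 42 of the 23185 genes on the array, each with 1 probe set: 13 Lce1, 5 Lce3 and 1 Lce6 gene, 10 Sprr2, 2 Sprr1, 1 Sprr3 and 1 Sprr4 gene, 6 genes of the S100-fused type, and Lor, Ivl and Crct1. The group was put forward with genotype differences of some of its members (Lce1h and Lce1k among them) already known, so the differences between genotypes below are a description and were not used as a test of the group. Expression was measured in lesional skin, with 1 Affymetrix array for each of 7 samples: 3 from OX40L wild type mice (ox40l+/+) and 4 from OX40L knockout mice (ox40l-/-). All were male, of the C57BL/6 background and 9 weeks old, and all had received bleomycin injections for 3 weeks, an agent used to induce skin fibrosis. No group without bleomycin was analysed here, and the labels do not say if the 7 samples are 7 animals, so a p-value here measures no more than how these samples scatter, and part of that may be technical. The samples carry codes of unstated meaning (YA16, YA16H, YA17, YA17h, YA18, YA18h and YA19), in which some numbers occur both with and without a letter at the end. The comparison asks how the epidermal envelope genes of bleomycin-treated skin differ when OX40L, a costimulatory ligand of the TNF family encoded by Tnfsf4, is absent.

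The cornified envelope is a protein shell that replaces the plasma membrane of keratinocytes as they die at the skin surface. Transglutaminases cross-link involucrin first, then loricrin, the small proline-rich (SPRR) proteins and the late cornified envelope (LCE) proteins, while filaggrin and its relatives, whose genes fuse an S100 calcium-binding domain to long repeats, bundle keratin filaments below the shell. The genes sit side by side in 1 cluster, appear late in differentiation, and several SPRR genes and Lce3 genes are known to rise in wounded or inflamed epidermis.

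Values are log2 levels after robust multi-array averaging (RMA). A probe set's brightness depends on its own probes, so levels are compared between arrays and not between genes. The 7 arrays were not alike. Wild type replicate 1 had the widest spread of log2 values (SD 1.72), wild type replicate 3 the narrowest (SD 1.22), and the SDs of the other 5 arrays lay between 1.38 and 1.48. For many of the discussed differences that rested mainly on 1 of those arrays, the value without that array is given beside them. The tissue label was borne out by keratinocyte markers, since 14 of 16 spinous and granular markers and 9 of 12 basal markers lay above the array median on all 7 arrays, as did 14 of 14 skeletal muscle markers. Tnfsf4 itself was at 2.53, 2.60 and 3.65 in wild type and at 3.35, 2.82, 2.81 and 2.81 in knockout, below the array median everywhere. The position of its probes relative to the deleted part was not known, so they do not serve as a check of genotype.

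To show which probe sets were dim, each value was set against its array's median. Of the 42, 26 were above the array median on all 7 arrays, 6 were at or below it on all 7 (Sprr2f, Sprr2g, Sprr2i, Sprr2j-ps, Sprr2k and Sprr3) and 10 lay on both sides. No filter on low values was applied, so all 42 enter every count. Between genotypes, 30 of the 42 had a higher mean in knockout and 12 a lower one, with a median difference (knockout minus wild type) of 0.18 on the log2 scale, whereas over all 23185 genes 51.8% were above 0 and the median was 0.01. In limma, 0 of the 42 passed at an adjusted p under 0.05, where 0.00431% of all genes did. At an unadjusted p under 0.05 limma called 7 members higher in knockout (Sprr2e, Lce6a, Lce1c, Lce1e, Lce1f, Lce1h and Lce1k), where 1.03% of all genes were called in that direction. It called 0 members lower, where 0.854% of all genes were called, and 1.88% of all genes were called in either direction. All knockout arrays lay above all wild type arrays for 4 members (Lce1h, Lce1k, Lce1e and Lce6a), where 1.1% of all genes did so. The opposite held for 0 members, where 0.815% of all genes did so. A fit with array weights counts arrays that fit poorly less, and its weights did not converge. That fit called 9 members higher at an adjusted p under 0.05, where it called 8.79% of all genes higher. It called 0 members lower, where it called 8.6% of all genes lower. Differences of at least 1 log2 unit were seen upwards in 4 members (0.405% of all genes) and downwards in 2 (0.587% of all genes). Nothing is read from these counts, because the group was put forward with the contrast known. In whole skin, fewer cells of a type and less RNA per cell cannot be told apart.

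The members had a larger median range between arrays than all genes had, but the 2 sets were not matched for brightness. The median range over the 7 arrays was 1.69 log2 units for the members and 0.929 for all genes. It was 1.80 for the 26 members above the array median on all 7 arrays and 0.50 for the 6 at or below it on all 7. A range of 2 or more was seen in 15 members, and the share of all genes with such a range was not counted. The median SD within a group was 0.62 in wild type and 0.41 in knockout for the members, and 0.387 and 0.188 for all genes. For 30 of the 42 members the highest or the lowest value was on wild type replicate 1 or 3. This was a smaller share than over all genes, where it held for 19374 of 23185.

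**Figure D1:**
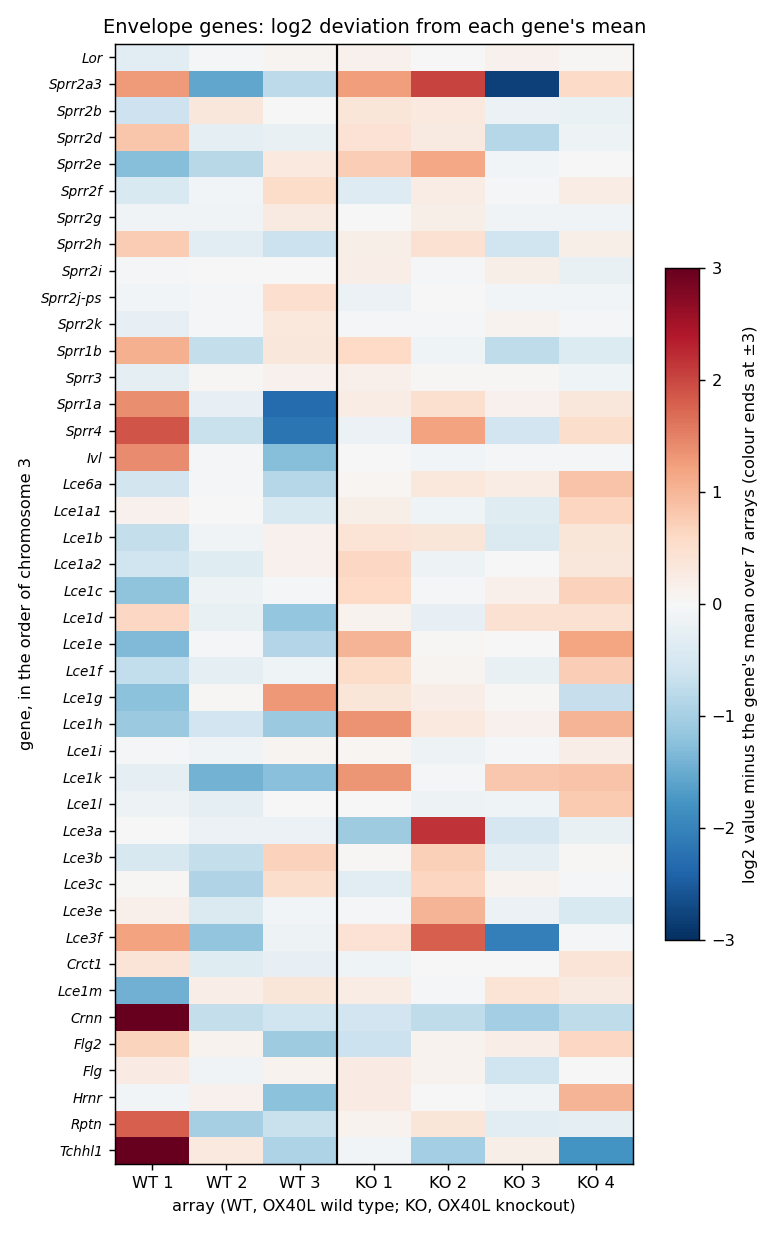
Each row is 1 of the 42 genes in the order of the chromosome, each column 1 array, and the colour is the log2 value minus that gene's mean over the 7 arrays. Lce1 rows are mostly blue on wild type replicate 1, where Crnn and Tchhl1 are deep red (8.62 and 9.43), and the 5 Lce3 genes have their highest value on knockout replicate 2.

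The Lce1 genes, which encode late envelope proteins laid down in the outermost living layers, had the highest median difference among the subfamilies with more than 2 members. The mean was higher in knockout for 12 of 13 members, and the median difference was 0.48, with a range from -0.05 (Lce1g) to 1.71 (Lce1k). Lce1h was at 5.80, 6.34 and 5.81 on wild type replicates 1, 2 and 3 and at 8.26, 7.22, 7.06 and 7.95 on knockout replicates 1 to 4. The lowest knockout array lay 0.73 above the highest wild type array. Knockout minus wild type came to 1.64 (SE 0.33, 95% confidence interval 0.87 to 2.40, n = 4 and 3), or 3.11-fold. Lce1k was at 4.71, 3.57 and 3.72 in wild type and at 6.31, 4.91, 5.79 and 5.83 in knockout. Here too the groups did not overlap, wild type replicate 1 and knockout replicate 2 being the closest arrays. Lce1k differed by 1.71 (SE 0.39, 95% confidence interval 0.78 to 2.63), or 3.27-fold. On wild type replicates 2 and 3 its values lay close to the array medians of 3.56 and 3.74. Lce1e was at 6.30, 7.60 and 6.76 in wild type and at 8.66, 7.66, 7.63 and 8.81 in knockout, a difference of 1.30 (SE 0.42). Its groups only just separated, since wild type replicate 2 came close to knockout replicates 2 and 3.

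The other Lce1 genes had smaller differences and overlapping groups. Lce1c (0.81, SE 0.33), Lce1f (0.67, SE 0.27), Lce1m (0.51, SE 0.42), Lce1a2 (0.48, SE 0.25), Lce1d (0.45, SE 0.41), Lce1b (0.41, SE 0.29), Lce1l (0.27, SE 0.25) and Lce1a1 (0.19, SE 0.27) all had higher means in knockout. Single arrays moved several of them: Lce1c differed by 0.44 without wild type replicate 1, and the difference of Lce1d was 0.0012 without wild type replicate 3. Lce1b differed by 0.16 without wild type replicate 1, and Lce1a1 by 0.02 without wild type replicate 3. Lce1m, which lies apart from the rest of its subfamily, beyond the Lce3 genes, was at 8.40 on wild type replicate 1 and between 9.82 and 10.26 on the other 6 arrays. Its difference was 0.51 with all arrays and -0.06 without wild type replicate 1, so that 1 array decided its sign. Lce1i was at 3.46, 3.40 and 3.57 in wild type and at 3.56, 3.34, 3.46 and 3.69 in knockout, a difference of 0.04 (SE 0.14). Lce1g was at 3.53, 4.78 and 6.05 in wild type and at 5.12, 4.96, 4.78 and 4.06 in knockout, a difference of -0.05 (SE 0.57). The wild type values of Lce1g spanned the whole knockout range, and its difference was -0.68 without wild type replicate 1 and 0.58 without wild type replicate 3.

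Wild type replicate 1 gave the lowest value of the 7 arrays for 8 of the 13 Lce1 genes, 61.5%, against 39.7% of all genes. Without it the Lce1 median difference was 0.32, with 11 of 13 members higher, and without wild type replicate 3 it was 0.68, with 13 of 13 higher. Without both it was 0.42, with 12 of 13 higher, and wild type replicate 2 then stood alone and was assumed to vary like the knockout arrays. In that run Lce1h differed by 1.29, Lce1k by 2.14, Lce1e by 0.59 and Lce1m by 0.02. Lce1k was thus larger than with all arrays, Lce1h smaller, and Lce1e and Lce1m much smaller.

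The promoters of Lce1h and Lce1k, the members that separated the genotypes most, and of Lce1g, a neighbour whose genotypes overlapped, are shown for comparison. Each is the 200 bases before the gene's start (RefSeq, build GRCm38.p6, 5′ to 3′ on the gene's strand). Capitals mark AATAAAA, an A-rich stretch at the place where a TATA box usually stands.
Lce1h, chr3:92765066-92765265, minus strand: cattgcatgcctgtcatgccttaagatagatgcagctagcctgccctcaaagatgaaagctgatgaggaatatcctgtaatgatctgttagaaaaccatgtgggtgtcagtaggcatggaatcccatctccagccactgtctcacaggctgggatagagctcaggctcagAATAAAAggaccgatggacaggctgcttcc
Lce1k, chr3:92807892-92808091, minus strand: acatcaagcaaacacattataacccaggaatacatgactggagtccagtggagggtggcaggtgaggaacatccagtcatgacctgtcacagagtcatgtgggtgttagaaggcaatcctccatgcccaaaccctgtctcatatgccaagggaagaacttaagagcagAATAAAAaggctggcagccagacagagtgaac
Lce1g, chr3:92752339-92752538, minus strand: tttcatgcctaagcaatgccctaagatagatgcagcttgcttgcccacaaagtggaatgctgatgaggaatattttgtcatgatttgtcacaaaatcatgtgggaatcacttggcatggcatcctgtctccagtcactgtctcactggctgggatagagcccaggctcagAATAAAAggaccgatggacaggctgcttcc
Over 250 bases before the start, the windows of Lce1h and Lce1g were 84.5% identical in a global alignment (identical columns over all columns, gaps included), and those of Lce1h and Lce1k 58.0%. Among 66 pairs of Lce1 windows, identity ran from 50.5% to 85.6%, with a median of 64.2%. Promoter identity does not show how alike the transcripts are. Transcripts of paralogs can share probes, which could not be checked without probe sequences, so each value belongs to its probe set.

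**Figure D2:**
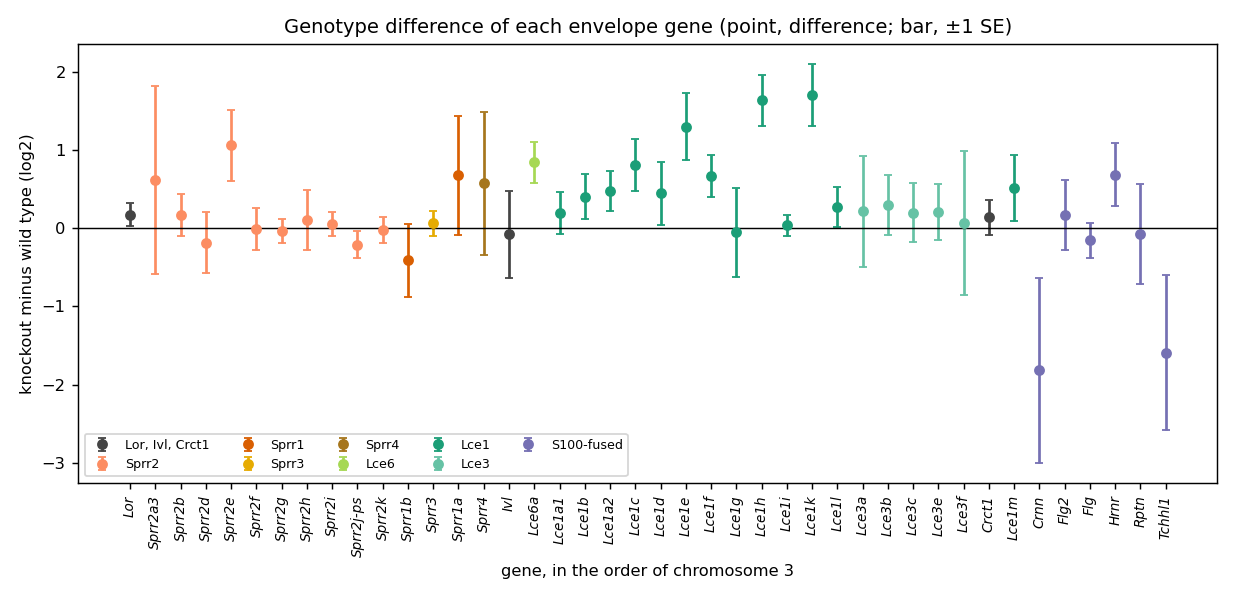
Points are knockout minus wild type differences in log2 units for the 42 genes in chromosomal order, bars are ±1 SE from limma, and colours mark the subfamilies. Lce1h (1.64), Lce1k (1.71) and Lce1e (1.30) stand highest, and Crnn (-1.81) and Tchhl1 (-1.59) lowest with SEs of 1.18 and 0.99.

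Lce6a, a single late envelope gene that lies between Ivl and the Lce1 genes, was at 3.95, 4.48 and 3.66 in wild type and at 4.57, 4.83, 4.73 and 5.36 in knockout. The groups did not overlap, with wild type replicate 2 just under knockout replicate 1. The difference was 0.84 (SE 0.26), and 0.39 without wild type replicates 1 and 3.

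The Lce3 genes, known for induction in injured epidermis, varied more between knockout arrays than between genotypes. All 5 had a higher mean in knockout, with a median difference of 0.21, and all 5 had their highest value of the 7 arrays on knockout replicate 2, an array that was highest for 7.58% of all genes. Lce3a was at 4.83, 4.66 and 4.67 in wild type and at 3.77, 7.01, 4.33 and 4.63 in knockout. Only that 1 knockout array lay above wild type, and the other 3 lay below it, so the difference of 0.22 (SE 0.71) turned to -0.47 without knockout replicate 2. Lce3f was at 5.25, 2.86 and 3.89 in wild type and at 4.47, 5.83, 1.996 and 3.997 in knockout, a difference of 0.07 (SE 0.92). Its lowest and highest values were both on knockout arrays. Lce3b was at 2.86, 2.64 and 4.04 in wild type and at 3.38, 4.07, 3.09 and 3.38 in knockout (difference 0.30, SE 0.38). Lce3c was at 7.26, 6.32 and 7.76 in wild type and at 6.88, 7.88, 7.33 and 7.16 in knockout (0.20, SE 0.37). Both overlapped throughout, as did Lce3e (0.21, SE 0.36). Without knockout replicate 2 the Lce3 median was -0.11 and 2 of 5 members were higher.

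The promoter of Lce3c, shown because Lce3 windows carry GATAAAA (in capitals) where the Lce1 windows carry AATAAAA, read as follows.
Lce3c, chr3:92944286-92944485, plus strand: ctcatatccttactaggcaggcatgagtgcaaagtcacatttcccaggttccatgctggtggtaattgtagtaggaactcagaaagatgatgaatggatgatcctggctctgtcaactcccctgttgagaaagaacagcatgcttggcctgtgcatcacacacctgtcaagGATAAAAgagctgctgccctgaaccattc
GATAAAA lay 20 to 40 bases before the start in 4 of 5 Lce3 windows and in 0.207% of all 32851 promoter windows. AATAAAA lay there in 8 of 12 Lce1 windows and in 0.402% of all windows. Both stretches were picked after these windows had been read.

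The Sprr2 genes, which encode small proline-rich cross-bridging proteins, fell into a dim and a brighter set. Of the 10, 5 (Sprr2f, Sprr2g, Sprr2i, Sprr2j-ps and Sprr2k) lay between 1.495 and 3.16 on all arrays, always at or under the array median, and differed by -0.21 to 0.06. Sprr2g and Sprr2j-ps are transcribed pseudogenes in RefSeq. Sprr2j-ps, with the lowest difference (-0.21, SE 0.18), was at 1.97, 2.01 and 2.55 in wild type and at 1.88, 2.05, 1.97 and 1.97 in knockout. At such levels the values say little about these transcripts.

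Among the 5 brighter Sprr2 genes, Sprr2e differed most. It was at 4.34, 4.80 and 5.91 in wild type and at 6.35, 6.77, 5.53 and 5.64 in knockout. Wild type replicate 3 lay above knockout replicates 3 and 4, so the groups overlapped, and the difference was 1.06 (SE 0.45). Leaving out 1 array at a time kept it between 0.72 and 1.51. Sprr2a3 had the widest spread of the subfamily, at 7.16, 4.34 and 5.11 in wild type and at 7.15, 7.93, 3.09 and 6.47 in knockout. Its difference of 0.62 (SE 1.201) was small against a knockout SD of 2.13, and was 1.44 without wild type replicate 1 and 0.02 without wild type replicate 2. Sprr2d was at 5.84, 4.72 and 4.80 in wild type and at 5.44, 5.29, 4.16 and 4.87 in knockout (-0.18, SE 0.39). Without wild type replicate 1 its difference was 0.18. Sprr2b (0.17, SE 0.27) and Sprr2h (0.11, SE 0.38) also overlapped, and the median over all 10 was 0.02. Without wild type replicate 1 Sprr2b differed by -0.09 and Sprr2h by 0.52, and without wild type replicate 3 Sprr2h differed by -0.18.

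Sprr2d and Sprr2e are the pair of Sprr2 windows most alike. They are shown because, with all arrays, their differences between genotypes were -0.18 and 1.06. Capitals mark the AP-1 motif (TGANTCA), the octamer motif (ATTTGCAT) and the TATA box (TATAAA), in that order.
Sprr2d, chr3:92338940-92339139, plus strand: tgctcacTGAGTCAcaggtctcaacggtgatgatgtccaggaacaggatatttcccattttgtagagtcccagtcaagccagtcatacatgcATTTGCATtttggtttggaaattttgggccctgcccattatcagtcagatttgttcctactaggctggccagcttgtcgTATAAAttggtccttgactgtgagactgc
Sprr2e, chr3:92351943-92352142, plus strand: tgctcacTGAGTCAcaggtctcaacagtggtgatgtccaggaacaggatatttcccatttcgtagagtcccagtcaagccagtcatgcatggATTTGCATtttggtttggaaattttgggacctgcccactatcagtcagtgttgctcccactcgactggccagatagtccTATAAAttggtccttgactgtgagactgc
Their 250-base windows were 89.3% identical, against a median of 64.8% over 28 pairs of Sprr2 windows, and all 3 motifs stood at the same places in both. The level of Sprr2d was highest on wild type replicate 1, where that of Sprr2e was lowest. Without that array Sprr2d differed between genotypes by 0.18 and Sprr2e by 0.72. The difference between the 2 genes was not tested.

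Sprr1a and Sprr1b, SPRR genes known from wounded skin, and Sprr4 had their highest value on wild type replicate 1, and the genotypes overlapped in each. Sprr1a was at 12.09, 10.46 and 8.38 in wild type and at 10.92, 11.18, 10.82 and 11.04 in knockout. The knockout arrays lay within 0.36 of each other while the wild type arrays spanned 3.72 log2 units, and the difference was 0.68 (SE 0.76). Sprr4 was at 10.66, 8.10 and 6.57 in wild type and at 8.60, 9.97, 8.21 and 9.29 in knockout (0.57, SE 0.92). Wild type replicate 3 was the lowest array for both genes. Sprr1b was at 7.51, 5.73 and 6.78 in wild type and at 7.03, 6.31, 5.67 and 6.04 in knockout (-0.41, SE 0.47), and its difference was 0.0089 without wild type replicate 1. Without wild type replicate 1, Sprr1a differed by 1.57 and Sprr4 by 1.68, and without wild type replicate 3 by -0.29 and -0.36. Sprr3, an SPRR gene of internal epithelia such as the oesophagus, was at 2.13, 2.46 and 2.56 in wild type and at 2.57, 2.46, 2.46 and 2.29 in knockout, under the array median everywhere.

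The transcripts of the classical envelope proteins overlapped between genotypes. Lor, which encodes loricrin, the most abundant envelope protein, was at 5.47, 5.79 and 5.90 in wild type and at 5.95, 5.82, 5.94 and 5.86 in knockout. Lor ranged over 0.48 in all, and differed by 0.17 between genotypes (SE 0.15, 95% confidence interval -0.17 to 0.52). Without wild type replicate 1 the Lor difference was 0.05. Ivl, which encodes involucrin, the early scaffold of the envelope, was at 8.46, 7.01 and 5.76 in wild type and at 7.04, 6.94, 7.01 and 7.01 in knockout (-0.08, SE 0.55). The 4 knockout arrays and wild type replicate 2 had nearly the same value, and the other wild type arrays lay on either side. The Ivl difference was therefore 0.62 without wild type replicate 1 and -0.74 without wild type replicate 3. Crct1, a small cysteine-rich gene next to Lce1m, was at 7.65, 6.90 and 7.01 in wild type and at 7.13, 7.27, 7.26 and 7.65 in knockout (0.14, SE 0.22).

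**Figure D3:**
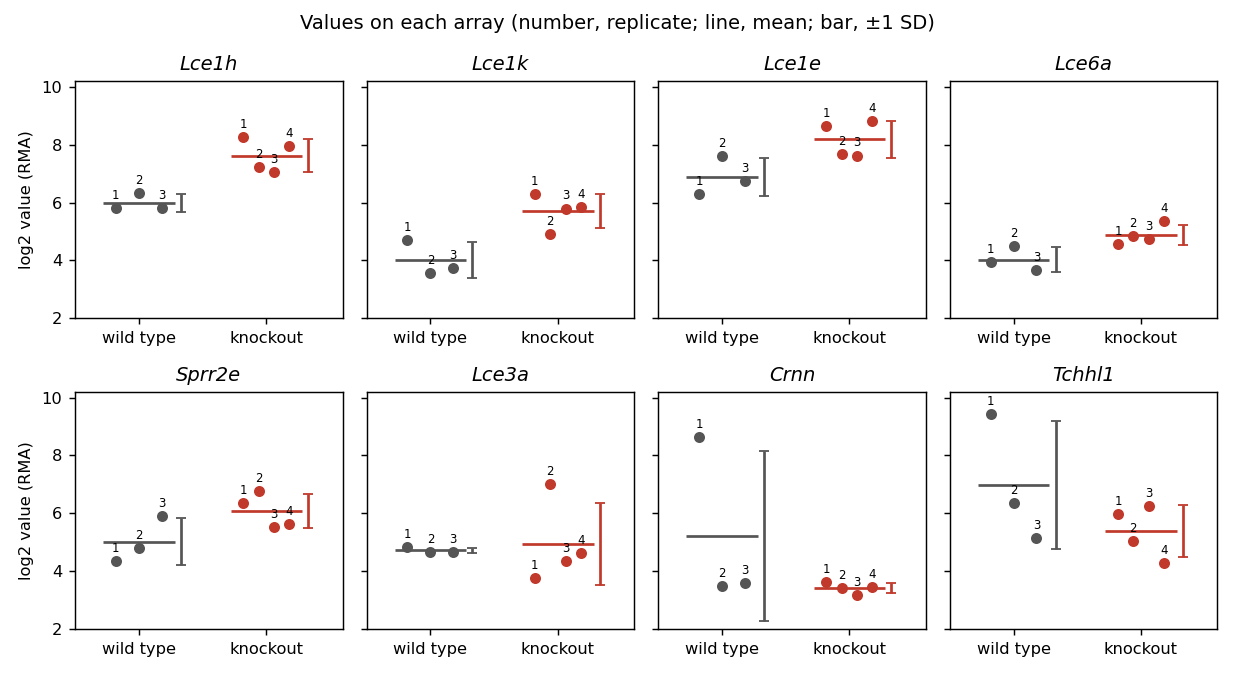
Log2 values of 8 envelope genes on each array, with the replicate number beside each point, the group mean as a line and ±1 SD as a bar (n = 3 wild type, 4 knockout). Lce1h, Lce1k, Lce1e and Lce6a separate the genotypes, Sprr2e overlaps, Lce3a is raised on knockout replicate 2 (7.01), and Crnn and Tchhl1 are raised on wild type replicate 1.

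Of the 6 S100-fused genes, 4 (Crnn, Tchhl1, Rptn and Flg2) had their highest value on wild type replicate 1, and the genotypes overlapped in all 6. Flg, which encodes profilaggrin, was at 8.75, 8.41 and 8.62 in wild type and at 8.76, 8.61, 7.90 and 8.48 in knockout (-0.15, SE 0.23). Knockout replicate 3 was the lowest array for Flg, and the other 6 lay close together. Flg2, a filaggrin relative, was at 5.94, 5.39 and 4.21 in wild type and at 4.64, 5.39, 5.47 and 5.90 in knockout (0.17, SE 0.45), and its difference was -0.31 without wild type replicate 3. Hrnr, which encodes hornerin, was at 6.16, 6.37 and 4.999 in wild type and at 6.49, 6.26, 6.13 and 7.25 in knockout (0.69, SE 0.40). Hrnr was lowest on wild type replicate 3, and without it the difference was 0.26.

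Crnn, which encodes cornulin, was at 8.62, 3.47 and 3.59 in wild type and at 3.63, 3.43, 3.17 and 3.43 in knockout, so wild type replicate 1 alone stood far above all others. Its difference was -1.81 (SE 1.18) with that array and -0.12 without it. Tchhl1, a trichohyalin-like gene, was at 9.43, 6.37 and 5.13 in wild type and at 5.98, 5.05, 6.24 and 4.27 in knockout (-1.59, SE 0.99). Without wild type replicate 1 its difference was -0.365. Rptn, which encodes repetin, was at 6.14, 3.35 and 3.69 in wild type and at 4.45, 4.72, 4.01 and 4.09 in knockout (-0.08, SE 0.64). Rptn thus lay above both other wild type arrays on all 4 knockout arrays, and without wild type replicate 1 its difference was 0.80.

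The promoters of Crnn and Tchhl1 are shown because both carry an AP-1 motif in the TGAATCA form near the start (first capitals), followed by TATAAA in Crnn and by AATAAAA in Tchhl1.
Crnn, chr3:93144589-93144788, plus strand: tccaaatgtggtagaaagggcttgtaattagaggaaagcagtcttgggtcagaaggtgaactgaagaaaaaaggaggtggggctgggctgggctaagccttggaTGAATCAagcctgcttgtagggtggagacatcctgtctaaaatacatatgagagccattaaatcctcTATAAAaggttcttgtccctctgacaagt
Tchhl1, chr3:93468554-93468753, plus strand: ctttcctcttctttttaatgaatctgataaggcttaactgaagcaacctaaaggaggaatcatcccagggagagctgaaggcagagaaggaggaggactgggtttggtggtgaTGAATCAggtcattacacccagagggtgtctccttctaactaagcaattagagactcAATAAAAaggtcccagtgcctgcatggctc
An AP-1 motif was present in the 250-base window of 5 of 6 S100-fused genes and of 7 of 8 Sprr2 genes, and in 0 of 12 Lce1 and 0 of 5 Lce3 windows.

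A promoter window was found for 38 of the 42 members (not for Sprr2g, Sprr2j-ps, Lce1f and Crct1). TGANTCA, searched on both strands, was in 16 of these 38 windows and in 6.75% of all 32851 windows of the same length. TATAAA, on the gene's strand, was in 18 of 38 and in 7.59% of all. ATTTGCAT, on both strands and chosen after the windows had been read, was in 7 of 8 Sprr2 windows, in no other member's window and in 1.601% of all. The Grainyhead motif AACCNGTT was in 1 of 38 windows and in 1.79% of all, and the C/EBP motif TTGCNNAA in 5 of 38 and in 9.56% of all. The AT-rich motifs have ATAAA in common and differ in the base before it, so that a single site counts for 1 of them at most. A window with ATTTGCAT may also match TTGCNNAA, since the motifs share TTGC. Of the 16 members with an AP-1 motif, 7 had a higher mean in knockout (median difference -0.015), and 9 had their highest value on wild type replicate 1. Of the 22 without one, 21 had a higher mean in knockout (median 0.43), and 2 were highest on that array. The division follows the subfamilies, since 17 of the 22 are Lce1 or Lce3 genes, and it was made after the values were seen. A match is a run of letters, and no binding was measured.

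Marker lists of the hair follicle and the epidermis also varied between arrays. Their mean levels were highest on wild type replicate 1, where the median deviation of the 42 members was -0.06. The mean level of 24 hair follicle markers was 7.85, 4.54 and 4.02 on the 3 wild type arrays, while the knockout means ran from 3.55 to 4.43. Of the 24, 10 lay above the array median everywhere. All 24 had a lower mean in knockout, and the median difference was -1.34, or -0.14 without wild type replicate 1. In limma 0 of the 24 passed at an adjusted p under 0.05, and 1 had an unadjusted p under 0.05. Tchh, the trichohyalin gene of the inner root sheath and direct neighbour of Tchhl1, was at 11.08, 7.80 and 5.04 in wild type, and its knockout values ran from 4.17 to 6.87. Spinous and granular markers had a mean level of 7.69, 6.55 and 5.77 on wild type replicates 1, 2 and 3 and of 6.60 to 6.97 in knockout. Basal markers stood at 6.45, 5.48 and 5.04 in wild type, with knockout means from 5.36 to 5.56. Wild type replicate 1 was thus the highest array for both epidermal lists while it was the lowest for 8 of 13 Lce1 genes. The part of these markers in the envelope gene differences was not tested.

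**Figure D4:**
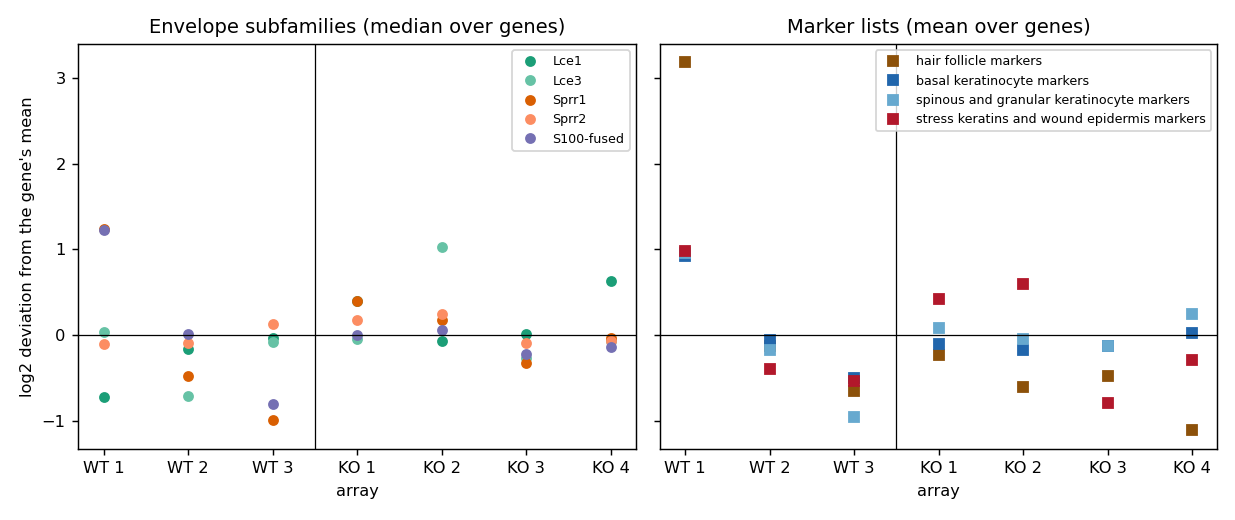
Deviation in log2 units from each gene's mean over the 7 arrays, as the median over the genes of 5 envelope subfamilies (left) and as the mean over the genes of 4 marker lists (right), for each array. On wild type replicate 1 the Lce1 median lies at -0.72 while the S100-fused median lies at 1.22 and the hair follicle list at 3.18.

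Within the knockout group, the mean level of genes of stressed epidermis separated replicates 1 and 2 from replicate 3. The mean level of the 12 measured stress keratin and wound epidermis markers was 6.31, 6.48, 5.10 and 5.59 on knockout replicates 1 to 4, and 6.87, 5.50 and 5.35 in wild type. Krt16 and S100a8 are given as examples chosen after their values were seen. Krt16, a keratin of wounded epidermis, was at 7.42, 6.90, 3.66 and 5.52 in knockout, and S100a8, a calprotectin subunit encoded in the same complex, at 8.27, 9.28, 5.78 and 6.96. Krt16 and S100a8 were lowest on knockout replicate 3, the array on which Sprr2a3 (3.09) and Lce3f (1.996) were lowest too. From the same list Krt6b, S100a9 and Stfa1 were also lowest there. Krt6a, Krt17, Defb3, Defb4, Defb14, Il1f6 and Serpinb3a were lowest on other arrays. Between genotypes 7 of the 12 had a higher mean in knockout, with a median difference of 0.05, which was 0.41 without wild type replicate 1 and -0.14 without wild type replicate 3. The brighter Sprr2 genes had a median deviation of -0.61 on knockout replicate 3 and of 0.43 and 0.45 on replicates 1 and 2.

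Genes that build, process or regulate the envelope had lower means in knockout more often than higher ones, and none passed. Of 25 genes of cross-linking and processing, 8 had a higher and 17 a lower mean, with 0 passing in either direction in limma and a median difference of -0.15. Of its 4 genes with the smallest p, Padi3, a peptidylarginine deiminase, differed by -1.24 (SE 0.61) and Sptlc1 by -0.28 (SE 0.16), while Csta1, a cystatin, differed by 0.38 (SE 0.22) and Trex2, a keratinocyte nuclease, by 0.37 (SE 0.23). Tgm1, the main epidermal transglutaminase, was at 6.21, 3.81 and 3.87 on the wild type arrays, and its knockout values lay between 3.47 and 4.09. Tgm1 was chosen after its values were seen. Without wild type replicate 1 the list's median was 0.25, so its sign rested on that array. Single genes moved too: without it Padi3 differed by -0.39, Sptlc1 by -0.14, Csta1 by 0.15 and Tgm1 by -0.08.

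Of 23 measured regulators of differentiation, 4 had a higher and 19 a lower mean (median -0.25), and 0 passed in either direction in limma. Fosl2, an AP-1 subunit, differed by -0.77 (SE 0.36), Klf4, a barrier transcription factor, by -0.68 (SE 0.43), Arnt by -0.33 (SE 0.26) and Cebpa by 0.46 (SE 0.24). The regulators' median was 0.12 without wild type replicate 1, so here too the sign rested on that array. Without it Fosl2 differed by -0.27, Klf4 by -0.09, Arnt by -0.04 and Cebpa by 0.62, and without wild type replicate 3 Cebpa differed by 0.29. Of 19 other measured genes of the complex, 5 had a higher and 14 a lower mean (median -0.32), and 0 passed in limma. Tchh differed by -2.48 (SE 1.34), S100a3, an S100 gene of hair, by -1.81 (SE 1.08), Prr9 by -1.67 (SE 1.04) and S100a7a by -0.32 (SE 0.17). Without wild type replicate 1 Tchh differed by -0.92, S100a3 by -0.28 and Prr9 by -0.20, and the list's median was 0.18. S100a7a differed by -0.19 without wild type replicate 3. Over these 3 lists, 0 genes had an unadjusted p under 0.05.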

How the data were processed

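Expression in lesional skin was measured on 7 Affymetrix arrays, 3 from OX40L wild type and 4 from OX40L knockout mice, grouped by the genotype in the titles. The values are log2 levels that the authors deposited after RMA, per the submitters' processing notes; the version, the probe-set definition and any build are not given in the sources used here. RMA usually normalizes by quantiles, but array medians still ran from 3.45 to 3.74. The platform annotation named 1 gene for 23185 of the 25206 probe sets and several for 0, and 2021 stay unnamed here.

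Genotypes were compared in limma 3.58.1 (R 4.3.3; lmFit and eBayes, 2 groups, two-sided) over the 23185 genes, with Benjamini-Hochberg adjustment at 0.05 and no filter. The procedure was tested on simulated data in which both genotypes had the SD of the knockout arrays. That test does not show how the procedure behaves with the wider wild type spread seen here. Differences are knockout minus wild type with limma's SE. Precision is limited by how few arrays there are. The members and the gene lists were chosen with earlier results of these data known. Values on every array are given for members outside the Lce and Sprr families, for the 2 highest and 2 lowest differences in Lce1, Lce3 and Sprr2, for small subfamilies, and for members whose genotypes did not overlap; in the pathway lists, up to 4 genes with the smallest p are named. All 42 members were found in the RefSeq table (GRCm38.p6), which gave their order and biotype. Promoters are RefSeq's, and windows were aligned with Biopython 1.88. Lists of basal, spinous, stress, hair follicle, sebaceous, fibroblast, muscle, adipocyte and leukocyte markers served as checks. Alternatives were a trend with robust moderation, filters on the dimmest 30% or 50% of genes, other scalings, array weights, the replicate number or code suffix as a block, all probe sets, and arrays left out. The code suffix is the letter at the end of a sample code, and the number in the code was not tried as a block. The spread of array values as a covariate was chosen after seeing the data. Figures were drawn with matplotlib 3.10.9.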

Additional observations from a re-analysis of the deposited data

Results flagged for a closer look

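In 3 members, 1 knockout array stood apart from the other 3 by more than Dixon's 95% critical value for 4 samples, which chance gives in about 1 of 20 groups. Lce1b was at 8.48 on knockout replicate 3, against 9.27 to 9.32 on the others. Lce1l was at 6.22 on knockout replicate 4, against 5.28 to 5.42. Sprr2k was at 2.05 on knockout replicate 3 and at exactly 1.90 on the other 3. With 3 equal values a gap of any size exceeds the critical value, and Sprr2k was dim on all arrays, so nothing is read from its flag. All 42 members were examined in this way.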

How the results depend on the processing

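The median difference of the 42 members (0.18) stayed above 0 under all 18 alternatives. It moved by more than its spread between replicates (0.085) with array weights (0.36) and without wild type replicates 1 and 3 together (0.32). When 1 array was dropped it lay between 0.0815 (without wild type replicate 2) and 0.308 (without knockout replicate 3). These 2 values also differed from 0.18 by more than that spread, so dropping a single array could move it too. The number of genes called in limma over the whole array, 1 as reported, was 0 with a trend and robust moderation, quantile normalization again, centring on medians, either block, all probe sets, the spread covariate or both arrays out, and 0 whichever single array was dropped. It was 4032 with array weights, a fit whose weights did not converge. That fit called 9 members higher (Lce1k, Lce1h, Sprr2e, Lce3c, Lce3b, Rptn, Crct1, Lce1a2 and Lce1f) and 0 lower, where it called 8.79% of all genes higher and 8.6% lower. Under the other 17 alternatives 0 members were called. With the replicate number as a block the members' median was 0.18. Same-numbered arrays did not deviate together (r of -0.086, -0.145 and 0.034 over all genes). Over the 42 members r was 0.08, -0.443 and -0.003 for replicates 1, 2 and 3. The numbers were therefore not taken as pairs. Of the 42 members, 19 kept their sign under every alternative that tested them, 16 higher (10 of them Lce1) and 3 lower (Sprr2j-ps, Crnn and Tchhl1). Lce1h stayed between 1.24 and 1.83 and Lce1k between 1.49 and 2.14.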

Other observations

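Sebaceous gland markers had a higher mean in knockout in 11 of 15 genes, with a median difference of 0.40. Lower means were found for Mc5r, Krt79, Plin2 and Mgst1. In limma 0 passed after adjustment, and 4 were higher at an unadjusted p under 0.05, where 1.03% of all genes were. The median was 0.61 without wild type replicate 1, 0.01 without wild type replicate 3 and 0.41 without both. Scd3, a stearoyl-CoA desaturase of the gland, had the smallest p of the list and was named after its values were seen. It was at 5.71, 6.12 and 5.28 in wild type and at 6.68, 6.67, 7.62 and 6.67 in knockout. Skeletal muscle markers had a higher mean in 12 of 14 genes (median 0.50), and without wild type replicate 3 the median was 0.08. Dermal fibroblast markers (7 of 13 higher) had a median of 0.20, which turned to -0.45 without wild type replicate 3. Adipocyte markers (6 of 9, median 0.22, or 0.08 without wild type replicate 3) and leukocyte markers (7 of 13, median 0.08) had smaller medians than the muscle markers. In limma 0 genes of these 4 lists passed after adjustment. An unadjusted p under 0.05 was found for 2 leukocyte markers, 1 in each direction, and for 1.88% of all genes.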
